A study of Mus musculus with 8 samples.

Results

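Sox2 lies on mouse chromosome 3 at 34649995 to 34652461 in build mm10, and its surroundings were followed from 50 kb before the gene to 150 kb past it, a window of 202.5 kb that ends at 34802461. A peak belonged to the window when its summit, the position of the highest read coverage, lay inside it. Of 254001 peaks in 4 lists, 74 did so. They were 22 CTCF peaks of C59 cells, 26 CTCF peaks of WT cells, 9 Smc3 peaks of C59 cells and 17 Smc3 peaks of WT cells. Smc3 peaks were then split by whether at least 1 bp of them was shared with a CTCF peak called in that line.

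Both lines were JM8.N4 mouse embryonic stem cells kept without feeders in serum and LIF. C59 is 1 clone in which both copies of Ctcf carry a FLAG-Halo tag and both copies of Rad21 carry a SNAPf-V5 tag, and WT is wild-type JM8.N4. CTCF was precipitated with an antibody to CTCF and cohesin with an antibody to its subunit Smc3, after formaldehyde cross-linking and sonication. Of 8 samples the 4 immunoprecipitations with a peak list were used, 1 library per line and protein, and the input and IgG libraries of both lines were not analysed here. With no replicate, no difference between the lines could be tested, no value has a standard deviation, and the intervals given cover counting error only.

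Sox2 encodes a transcription factor of the HMG-box family that acts with Oct4 to keep embryonic stem cells pluripotent. In these cells its transcription depends on a cluster of enhancers far downstream, known as the Sox2 control region, about 100 kb from the gene. CTCF, with its array of zinc fingers, reads an oriented DNA motif at insulators and loop anchors. Cohesin is a ring of Smc1a, Smc3 and Rad21 that extrudes chromatin loops and is often halted at CTCF, and it is also found at active promoters and enhancers, where the loader Nipbl is present.

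The promoter sequences are shown for the 2 genes of the window that carry the contrast between a start without CTCF and a start with it. They come from the RefSeq table of GRCm38.p6, the assembly with the chromosomes of mm10, and run 5′ to 3′ from 250 bases before the gene start to 50 bases after it. Of the 7 genes in the window, 4 matched an entry in that table. The Sox2 promoter lies at chr3:34649745-34650044 on the plus strand, and its capitals mark the single match to AGGNGGC, the 7-letter core of the CTCF motif, which reads on the minus strand. The promoter of Gm38509, a long noncoding RNA gene at 34772075 to 34782346, lies at chr3:34771825-34772124 on the plus strand. Its capitals mark the 174 bases inside the C59 CTCF peak, all of which also lie inside the WT CTCF peak.
Sox2: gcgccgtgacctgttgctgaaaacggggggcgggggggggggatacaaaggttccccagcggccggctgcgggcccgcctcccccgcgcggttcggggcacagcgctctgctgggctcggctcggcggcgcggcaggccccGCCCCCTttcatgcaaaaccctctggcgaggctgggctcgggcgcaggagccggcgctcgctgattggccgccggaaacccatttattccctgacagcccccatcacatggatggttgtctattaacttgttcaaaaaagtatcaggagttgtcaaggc
Gm38509: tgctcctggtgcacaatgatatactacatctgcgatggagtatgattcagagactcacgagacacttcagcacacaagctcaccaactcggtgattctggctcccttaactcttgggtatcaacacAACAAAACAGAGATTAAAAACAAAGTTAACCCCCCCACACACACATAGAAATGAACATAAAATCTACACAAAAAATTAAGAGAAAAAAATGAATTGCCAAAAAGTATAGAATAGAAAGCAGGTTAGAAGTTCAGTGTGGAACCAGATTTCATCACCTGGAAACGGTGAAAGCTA

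No peak of any list overlapped the Sox2 promoter. The nearest peak edge was 575 bp away in C59 Smc3 and 59 bp away in WT Smc3, and the nearest CTCF edge was 1477 bp away in C59 and 1459 bp away in WT. The promoter was rich in G and C, at 66.3% of its bases, percentile 85.0 of 32851 promoters, whose median was 52.7%. A 12-letter CTCF core (CC, any 3 bases, AGG, any base, GGC), searched on both strands, had no match in it, and 3.43% of all promoters held one. The 7-letter core inside that motif, added after the data had been seen, matched bases 142 to 148, and 29.4% of all promoters held at least one such match. The Gm38509 promoter, with 39.3% G and C, held neither motif, although it overlapped the C59 CTCF peak by 174 bp, the WT CTCF peak by 228 bp and the WT Smc3 peak by 137 bp. A match is only a description of letters, and the absence of these letters from a promoter window says nothing about the rest of a peak.

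CTCF and Smc3 peaks were dense around Sox2 in both lines. CTCF peaks stood at 10.9 per 100 kb in C59 and 12.8 per 100 kb in WT, while chromosome 3 as a whole had 2.42 per 100 kb in C59 and 2.9 per 100 kb in WT. Smc3 peaks stood at 4.45 per 100 kb in C59 and 8.4 per 100 kb in WT, while chromosome 3 had 0.797 per 100 kb in C59 and 1.41 per 100 kb in WT. The proteins were placed differently along the window. Between 10 and 100 kb past the Sox2 start there were 10 CTCF peaks in each line, but 0 Smc3 peaks in C59 and 1 in WT. From the start of the gene to 10 kb past it there were 0 CTCF peaks in either line, but 3 Smc3 peaks in C59 and 5 in WT.

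**Figure D1:**
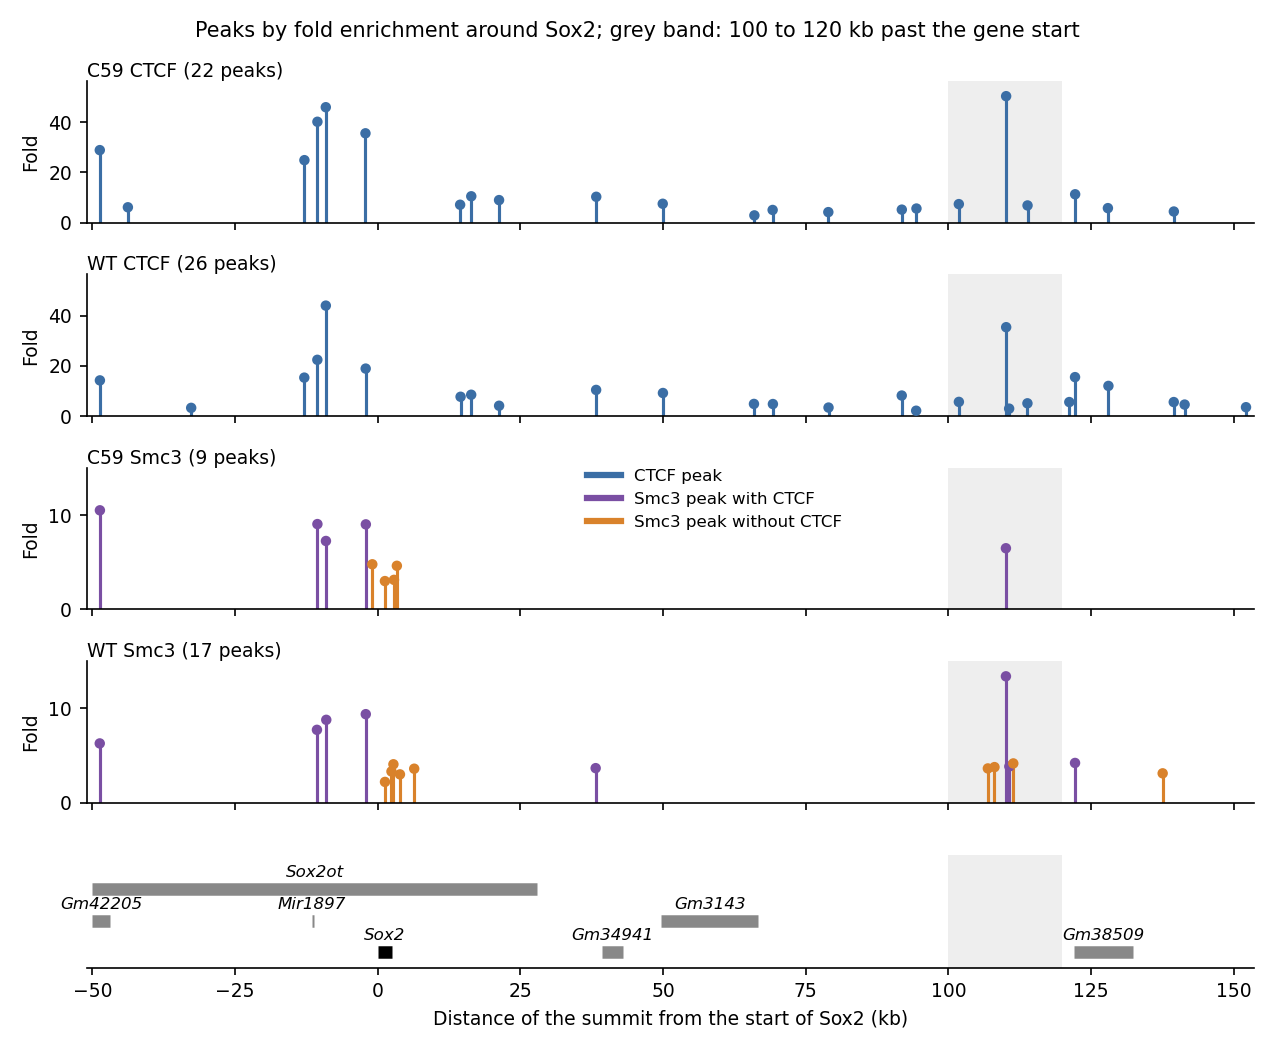
All 74 peaks of the window by distance of the summit from the Sox2 start in kb, with a panel for each list, the annotated genes beneath and the distal zone in grey; height is the fold enrichment on a linear scale, and blue marks CTCF, purple Smc3 with CTCF and orange Smc3 without it. CTCF peaks run across the whole window. Most Smc3 peaks lie before Sox2, or up to 10 kb or 100 to 120 kb past its start, with 3 others in WT.

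The strongest CTCF sites of the window stood in a group just before Sox2 and at 1 site in the distal enhancer zone, taken as 100 to 120 kb past the start. Values are the authors' fold enrichment, the ratio of coverage at the summit to local background. Folds and coverages were scaled separately in each list, so a fold ranks a peak only within its own list. The site 9.1 kb before Sox2 (34640479 to 34641374 in C59, 34640462 to 34641362 in WT) had a fold of 46.0 in C59 and 44.0 in WT. It ranked at percentile 98.1 of the C59 list and percentile 99.1 of the WT list. The site 110.1 kb past the start (34759662 to 34760798 in C59, 34759559 to 34760452 in WT) had a fold of 50.4 in C59 and 35.4 in WT. It ranked at percentile 99.2 in C59 and 95.5 in WT, so both sites belonged to the top decile of both lists.

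The strongest sites were taken as the 8 of highest WT fold, and the other 6 of them lay before Sox2 or past the distal zone. The site 10.6 kb before Sox2 had a fold of 40.2 in C59 and 22.4 in WT, and a CTCF and an Smc3 summit there lay within 1 kb of the microRNA gene Mir1897 in both lines. The site 2.1 kb before Sox2, at 34647540 to 34648268 in C59 and 34647501 to 34648286 in WT, was the CTCF site closest to the gene, with a fold of 35.6 in C59 and 18.9 in WT. The sites at 12.9 kb and 48.7 kb before Sox2 had folds of 24.9 and 28.9 in C59, against 15.3 and 14.2 in WT. The site 48.7 kb before lay inside Gm42205, a long noncoding RNA gene. Past the distal zone, the site at 122.2 kb, which overlaps the start of Gm38509, had a fold of 11.3 in C59 and 15.5 in WT, and the site at 128.0 kb had a fold of 5.78 in C59 and 12.0 in WT. These 8 sites had the highest WT folds of the window, and every other WT CTCF peak there had a lower fold.

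Of the remaining CTCF peaks, 14 of 14 in C59 and 17 of 18 in WT had a fold below the median of their list. The exception was the WT peak at 38.3 kb with a fold of 10.4. These peaks were left after the 8 sites of highest WT fold were set aside, so their low folds follow in part from that choice. The top decile of the list held 4 of the 22 C59 CTCF peaks of the window (18.2%) and 2 of the 26 WT ones (7.69%). The folds of its CTCF peaks ran from 2.89 to 50.4 in C59 and from 2.11 to 44.0 in WT. Their median was 7.45 in C59 and 6.65 in WT, while the whole lists had medians of 11.2 in C59 and 9.5 in WT. A long noncoding gene in which Sox2 itself lies, Sox2ot (34560381 to 34677993), held 9 CTCF summits in each line, and 8 Smc3 summits in C59 and 9 in WT. Gm3143 had a CTCF summit within 1 kb of both of its ends in both lines, and no Smc3. Gm34941 had no summit of any list inside it or within 1 kb of its ends.

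CTCF sites were nearly the same set in the 2 lines. Of the 22 C59 CTCF peaks, 21 overlapped a WT peak (95.5%, exact 95% Clopper-Pearson interval 77.2 to 99.9), and the share over the whole C59 list was 97.1%. Of the 26 WT CTCF peaks, 22 overlapped a C59 peak (84.6%, interval 65.1 to 95.6), and the share over the whole WT list was 79.8%. Both shares were close to those of the lists, whose values lie inside the intervals. The C59 peak without a WT partner lay 43.8 kb before Sox2 with a fold of 6.12. The 3 strongest WT peaks without a C59 partner lay at 121.2, 141.4 and 152.2 kb past the start with folds of 5.56, 4.56 and 3.51, and the fourth lay 32.7 kb before it with a fold of 3.25. All 5 unpartnered peaks had folds below the medians of their lists. The summits of the 21 sites paired between the lines lay a median of 20 bp apart and at most 91 bp apart.

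Cohesin at Sox2 split into 2 kinds of peak. Of the 9 C59 Smc3 peaks 5 overlapped CTCF and 4 did not, and of the 17 WT Smc3 peaks 8 overlapped CTCF and 9 did not. Those without CTCF were 44.4% in C59 (interval 13.7 to 78.8), where the whole list had 2.11%, and 52.9% in WT (interval 27.8 to 77.0), where the whole list had 4.79%. Neither interval reaches the share of its list. Peaks side by side in 1 window are not independent draws, so the intervals are narrower than they should be. The counts were the same when overlap with CTCF of either line was asked for, with list shares of 1.93% in C59 and 4.67% in WT.

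**Figure D2:**
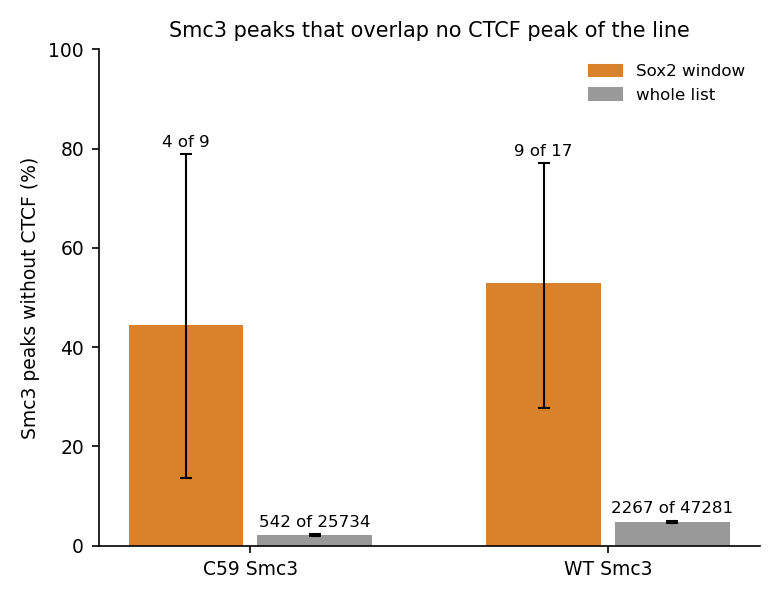
Percent of Smc3 peaks without a CTCF peak of the line, in the Sox2 window and in the whole list, for C59 and WT, with exact 95% intervals as error bars. The window stands at 44.4% in C59 and 52.9% in WT, and the lists stand at 2.11% in C59 and 4.79% in WT.

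Weak Smc3 peaks were more often without CTCF throughout the lists, and the peaks of the window were not all strong. With the list shares taken at the fold deciles of the window's own peaks, the lists had 2.74% without CTCF in C59 and 10.8% in WT, still below the 44.4% of the C59 window and the 52.9% of the WT window. Among peaks with a q-value of 1e-10 or smaller (−log10 q of at least 10), 0 of 5 were without CTCF in the C59 window and 1 of 8 in the WT window, while the lists had 0.717% in C59 and 0.462% in WT. Among the weaker ones, 4 of 4 were without CTCF in the C59 window and 8 of 9 in the WT window, while the lists had 4.31% in C59 and 13.2% in WT. The contrast with the lists thus rested on the weaker Smc3 peaks, and at the stricter limit 1 WT peak remained.

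The Smc3 peaks with CTCF were the stronger kind. Their folds ran from 6.48 to 10.5 in C59, with a median of 9.01, and from 3.67 to 13.4 in WT, with a median of 7.01. Those without CTCF had folds of 3.0 to 4.78 in C59, with a median of 3.88, and of 2.21 to 4.17 in WT, with a median of 3.61. In C59 the ranges did not overlap, and in WT they did. The same order held over the whole lists, where medians with CTCF were 5.73 in C59 and 6.01 in WT and medians without it were 3.88 in C59 and 3.32 in WT.

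There were 4 CTCF sites before Sox2 that carried Smc3 in both lines. At 48.7 kb before the gene Smc3 had a fold of 10.5 in C59 and 6.29 in WT. At 10.6 kb before it the fold was 9.04 in C59 and 7.73 in WT, and at 9.1 kb in C59 and 9.0 kb in WT it was 7.25 in C59 and 8.79 in WT. At 2.1 kb before it the fold was 9.01 in C59 and 9.39 in WT. The Smc3 summits sat on those of CTCF. Over the window the 5 C59 peaks with CTCF had their summits 2 to 66 bp from the CTCF summit, where the list median was 25 bp, and the 8 WT peaks had theirs 1 to 81 bp away, where the list median was 28 bp. Conversely, 5 of 22 CTCF peaks in C59 (22.7%, interval 7.82 to 45.4) and 8 of 26 in WT (30.8%, interval 14.3 to 51.8) overlapped Smc3, while the lists had 30.0% in C59 and 44.3% in WT. The site 12.9 kb before Sox2, among the stronger CTCF sites, had no Smc3 peak in either line.

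Over Sox2 itself, Smc3 was present without CTCF in both lines. The gene stood in a stretch with no CTCF peak that was 15.8 kb long in C59 (34648268 to 34664039) and 15.6 kb long in WT (34648286 to 34663909). Such a length was ordinary, as gaps between neighbouring CTCF peaks of chromosome 3 had a median of 13.4 kb in C59 and 11.4 kb in WT. The stretch held 4 Smc3 summits in C59 and 5 in WT, and these included every C59 Smc3 peak of the window without CTCF.

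In C59 the 4 peaks lay just before the gene, inside it and past its end. The first, at 34648592 to 34649170, had its summit 946 bp before the Sox2 start and a fold of 4.78. The second lay inside Sox2, which has no introns, with its summit 1.3 kb past the start and a fold of 3.0, and it was close to the limit of calling with a q of 0.00554. The other 2 had their summits 386 and 892 bp past the end of the gene, with folds of 3.13 and 4.62. The peak 386 bp past the end was also close to the limit, with a q of 0.00158. The nearest CTCF peak was 0.324 to 5.01 kb away from these 4 peaks.

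In WT the 5 peaks began inside the gene. The summits 1.3 and 2.4 kb past the start lay inside Sox2, with folds of 2.21 and 3.32, and the q of the first was 0.0228. The summits at 2.8, 3.9 and 6.4 kb lay past the end of the gene, with folds of 4.08, 3.01 and 3.61. The peaks at 2.4 kb (34651968 to 34652449) and 2.8 kb (34652510 to 34652927) nearly touched and were counted separately. The peaks at 2.4 and 6.4 kb had no C59 partner, in fold deciles where 9.35% and 11.5% of the WT Smc3 list had one. The WT peak on the CTCF site 2.1 kb before Sox2 ran on from 34647541 to 34649686, a length of 2146 bp, and only 19 peaks of the WT Smc3 list were longer. It covered both the C59 peak on that CTCF site and the separate C59 peak 946 bp before the start, so the ground just before the Sox2 start counts as Smc3 with CTCF in WT.

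**Figure D3:**
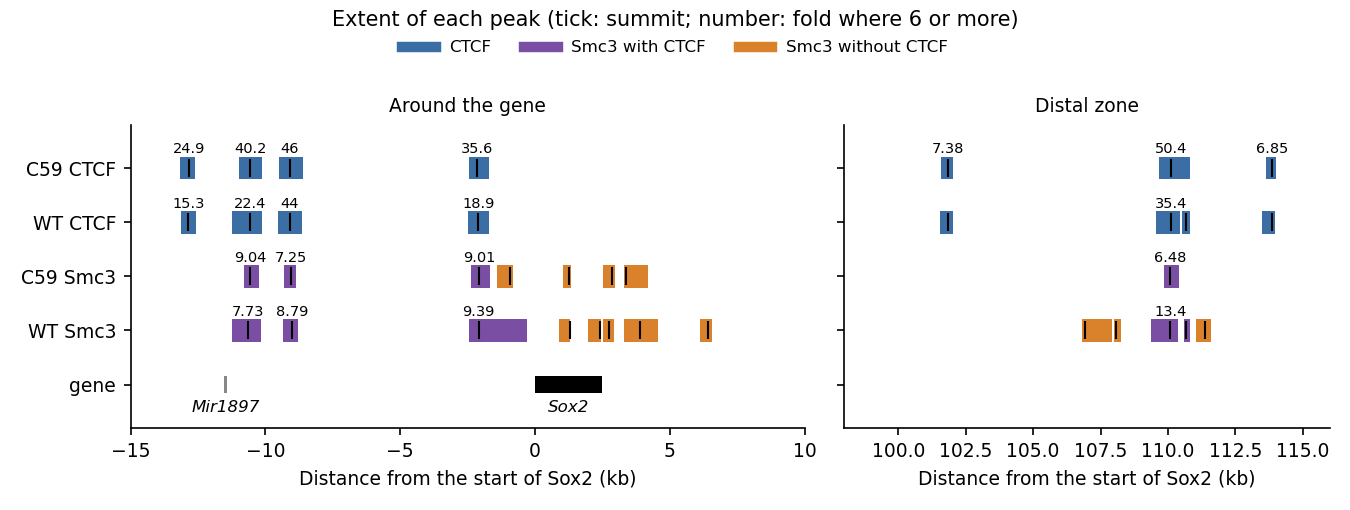
Extents of the peaks around Sox2 (left) and in the distal enhancer zone (right), with a row for each list and distance from the Sox2 start in kb; ticks mark summits, numbers give the fold where it is 6 or more, and blue is CTCF, purple Smc3 with CTCF and orange Smc3 without it. Over Sox2 there are Smc3 peaks and no CTCF peaks in both lines, and the WT Smc3 peak of 2146 bp spans 2 peaks of C59.

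These peaks formed a run. Each of the 4 C59 peaks without CTCF had 3 others of that kind within 10 kb. Each of the 5 WT peaks from the gene start to 10 kb past it had 4 others, with peaks that nearly touch counted separately. In the whole C59 list 54.1% of Smc3 peaks without CTCF had no other within 10 kb and 20.8% had 2 or more. In the WT list 67.7% had none, 15.4% had 2 or more and 2.56% had 4 or more. Within a line the peaks at Sox2 are members of the same run, so their counts are not separate observations.

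The distal zone differed between the lists of the lines in its Smc3 peaks and little in its CTCF peaks. C59 had 3 CTCF peaks there, at 101.8, 110.1 and 113.9 kb, and WT had 4, at the same places and at 110.7 kb. The weak WT peak at 110.7 kb (34760511 to 34760801, fold 2.94) overlapped the 1137 bp C59 peak at 110.1 kb, which ended at 34760798. C59 had 1 Smc3 peak in the zone, on the CTCF site at 110.1 kb with a fold of 6.48, and WT had 5. The WT peak on that site (34759372 to 34760372) had a fold of 13.4 and was the strongest WT Smc3 peak of the window.

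The other WT Smc3 peaks of the zone surrounded that site. Those at 106.9, 108.1 and 111.4 kb overlapped no CTCF and had folds of 3.64, 3.78 and 4.17, with the nearest CTCF peak 1.64, 1.31 and 0.25 kb away. The peaks at 106.9 kb (34756804 to 34757921) and 108.1 kb (34757977 to 34758251) nearly touched and were counted separately. The peak at 111.4 kb, at 34761051 to 34761582, was the only WT peak of the window without CTCF at a q of 1e-10 or smaller. The peak at 110.7 kb had a fold of 3.85 and overlapped the weak CTCF peak there. None of these 4 had a C59 partner. Their folds fell in deciles 2 and 3 of the WT Smc3 list, where only 11.5% and 17.7% of all peaks had one. In the C59 list no Smc3 peak stood in the 106 kb between 34654170 and 34759841. The WT list had a gap of 68.3 kb, between 34688528 and 34756804.

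Elsewhere in the window Smc3 stood in the WT list alone. The peak at 38.2 kb overlapped a CTCF peak and had a fold of 3.67. The peak at 122.2 kb overlapped the CTCF peak at the start of Gm38509 and had a fold of 4.22. The peak at 137.6 kb overlapped no CTCF and had a fold of 3.12. In fold deciles 1 to 3 of the WT Smc3 list, which hold these peaks, 9.35%, 11.5% and 17.7% had a C59 partner.

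All C59 Smc3 peaks of the window were found in WT, and fewer than 1 in 2 the other way. Of 9 C59 peaks 9 overlapped a WT peak (100%, interval 66.4 to 100), where the whole list had 98.1%. Of 17 WT peaks 8 overlapped a C59 peak (47.1%, interval 23.0 to 72.2), where the whole list had 52.9%. Both list shares lie inside these intervals. The C59 Smc3 list is the shorter one, with 25734 peaks against 47281 in WT, and weak WT peaks are the ones most often missing from it. At the fold deciles of the window's WT Smc3 peaks, 33.0% of the WT list was found in C59. The WT peaks without CTCF were found for 3 of 9 (33.3%, interval 7.49 to 70.1), where the list had 14.4%, and those with CTCF for 5 of 8 (62.5%, interval 24.5 to 91.5), where the list had 54.9%.

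Ranks can be set side by side between the lines only over sites present in both, of which there were 78473 for CTCF and 24943 for Smc3, each peak being the other's best match. At the distal site 110.1 kb from Sox2, CTCF ranked at percentile 99.1 in C59 and 94.3 in WT, while Smc3 ranked at percentile 61.5 in C59 and 87.4 in WT. By coverage in place of fold Smc3 there ranked at percentile 38.4 in C59 and 86.8 in WT. At the site 48.7 kb before Sox2 the order was the other way, with Smc3 at percentile 92.2 in C59 and 26.3 in WT. At the site 10.6 kb before it Smc3 ranked at percentile 86.1 in C59 and 43.4 in WT, but by coverage at percentile 87.4 in C59 and 86.8 in WT. At 2.1 kb before it Smc3 ranked at percentile 85.9 in C59 and 61.5 in WT by fold, and the order turned by coverage, at percentile 79.8 in C59 and 88.7 in WT.

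Of the 8 Smc3 pairs 6 ranked higher in C59 by fold and 6 by coverage, and of the 21 CTCF pairs 14 did so by fold and 11 by coverage. No share over all pairs of the lists was computed. These counts therefore cannot say whether the window departs from the lists. Local background differed between the lines too. At the CTCF peaks before Sox2 the background had a median of 3.62 in C59, where the list median was 4.0, and of 7.83 in WT, where it was 5.22. At the Smc3 peaks there it had a median of 4.25 in C59, where the list median was 4.26, and of 8.06 in WT, where it was 5.1. At the distal site, where Smc3 ranked lower in C59, its background was 3.56 in C59, at percentile 4.92 of that list. In WT it was 5.94 there, above the list median. From the gene start to 10 kb past it the median Smc3 background stood at percentile 55.8 of the C59 list and 57.8 of the WT list. A raised background lowers the fold of a peak of given coverage, and its part in the ranks was not tested. With 1 library per line, a difference in rank between the lines has no replicate check.

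**Figure D4:**
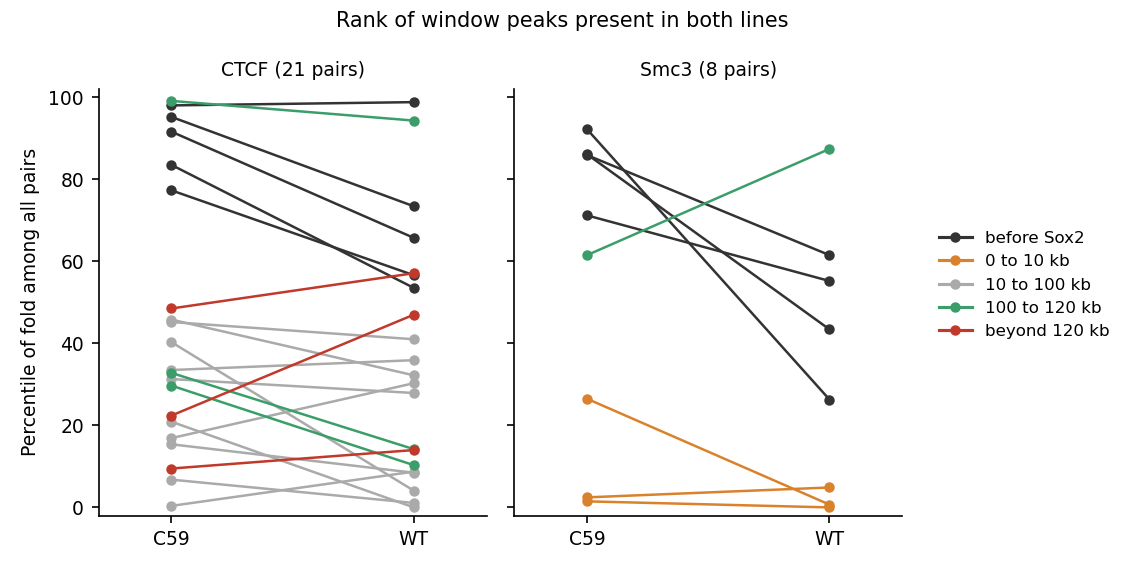
Percentile by fold among the sites present in both lines, for each CTCF pair (21) and Smc3 pair (8) of the window, with C59 on the left and WT on the right of each panel, and lines that join the peaks of a pair coloured by distance from the Sox2 start. Smc3 at the distal site stands at 61.5 in C59 and 87.4 in WT, while Smc3 at 48.7 kb before Sox2 stands at 92.2 in C59 and 26.3 in WT.

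Among 21883 protein-coding genes Sox2 had one of the larger numbers of Smc3 peaks without CTCF. Within 10 kb of its span there were 4 in C59 and 5 in WT. In C59 31 genes, or 0.142%, had as many or more and 96.8% had none, and in WT 41 genes, or 0.187%, had as many or more and 91.1% had none. Neighbouring genes share peaks in such counts. Most of the C59 genes, and several of the WT ones, were histone genes on chromosome 13. For Smc3 peaks of any kind Sox2 had 6 in C59 and 7 in WT, which 1.59% of genes reached in C59 and 4.67% in WT.

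**Figure D5:**
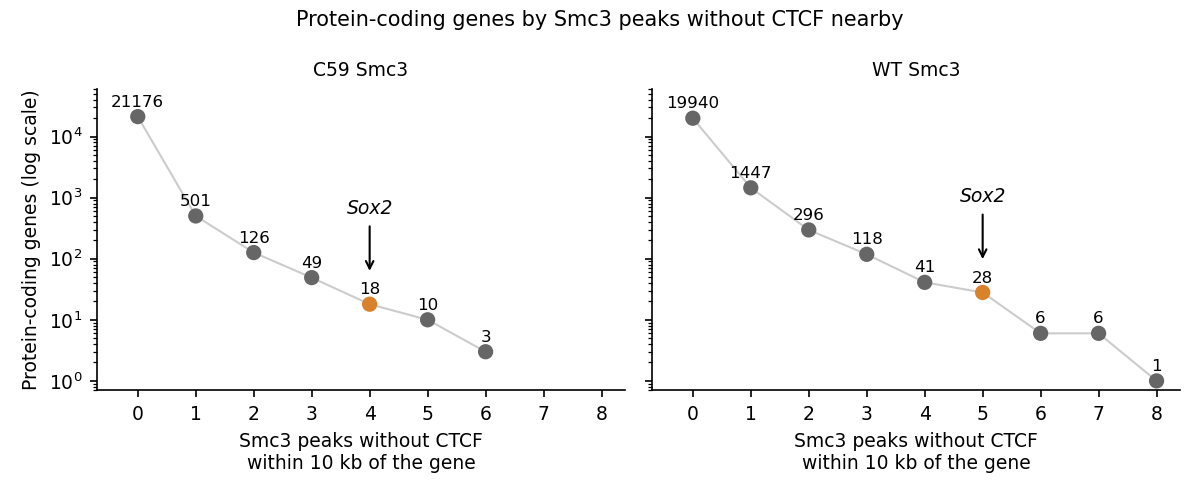
Number of protein-coding genes (log scale) by the number of Smc3 peaks without CTCF within 10 kb, for C59 (left) and WT (right), with the point that holds Sox2 in orange. Sox2 stands at 4 in C59 and 5 in WT, where most genes stand at 0.

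A peak within 1 kb of a gene end was a narrower measure. By it Sox2 had no CTCF in either line and had Smc3 in both, with 3 summits in C59 and 2 in WT. Of all protein-coding genes 32.9% had CTCF at an end in C59 and 38.3% in WT, and 11.2% had Smc3 at an end in C59 and 20.8% in WT. The combination seen at Sox2, Smc3 and no CTCF at an end in both lines, was shared by 137 genes, or 0.626%. The genes most like Sox2, by the smallest summed difference in log2 fold of the strongest peak at an end over the 4 lists, were Cacng3 on chromosome 7, Noc3l on chromosome 19 and Mcmdc2 on chromosome 1. Their Smc3 folds were 4.78, 4.70 and 4.55 in C59 and 4.11, 4.07 and 4.08 in WT, beside 4.78 and 4.08 at Sox2. The Sox2 values belong to different places, 946 bp before the start in C59 and 287 bp past the end in WT. All of these genes lacked CTCF at an end, and the likeness rests on 4 values a gene. The 3 genes were chosen by those same values, so the likeness is not a separate result. Each of the 3 had 1 Smc3 peak at an end in each line, where Sox2 had 3 in C59 and 2 in WT.

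Among 24 genes of the pluripotency network, all of which matched the gene table, 12 had CTCF within 1 kb of an end in C59 and 13 in WT, where 32.9% of all protein-coding genes did in C59 and 38.3% in WT. Smc3 stood there at 5 in C59 and 11 in WT, where 11.2% of all genes had it in C59 and 20.8% in WT. It stood there at 4 in both lines, where 10.5% of all genes had it in both. Beside Sox2 these were Klf2, a Krüppel-like factor of the naive state with Smc3 folds of 4.62 in C59 and 4.75 in WT, and Tbx3, a T-box factor, with 3.93 in C59 and 6.10 in WT. The fourth was Tdgf1, a co-receptor of Nodal signalling, with 3.60 in C59 and 3.21 in WT. Of the 4, Klf2 and Sox2 lacked CTCF at an end in both lines. Within 10 kb, Smc3 without CTCF lay near 7 of the 24 genes in C59 and 13 in WT, while 3.23% of all genes had it in C59 and 8.88% in WT. Sox2 had the most in C59, with 4 peaks, and shared the highest count in WT, 5, with Nanog, which had 1 in C59.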

How the data were processed

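CTCF and Smc3 ChIP-seq peak lists of C59 and WT cells were used, 4 lists in mm10 coordinates, grouped by genotype and antibody label. Antibodies to Rad21 and CTCF are given in the labels' extraction protocol, but the cohesin libraries' own antibody label says Smc3 and was used. The series also names Smc1a, not analysed here. Per the submitters' processing notes, which give no roles, the tools included MACS2 2.1.0.20140616 and Bowtie 0.12.8, with deepTools 2.4.1, FastQC 0.10.1 and CASAVA, on build mm10. Which control and threshold were used, and read totals, are not given in the sources used here, so depth is unknown. Lists had 10 columns and no header.

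The pileup (coverage signal at the summit), the fold (a ratio to local background), the p-value and q-value, and peak length and summit were all deposited by the authors. The largest q was 0.0495, and a p of exactly 0 stood in 2345 C59 and 3206 WT CTCF peaks. Pileups were scaled differently between lists. For the local background, 1 was added to the pileup, the sum was divided by the fold, and 1 was taken off.

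Overlaps (at least 1 bp), distances and exact Clopper-Pearson intervals at 95% were computed with scipy 1.17.1, pandas 2.3.3 and numpy 2.4.6 under Python 3.11.15, tested on simulated peak lists, and drawn with matplotlib 3.10.9. Genes, without strand or exons, and promoters came from RefSeq GRCm38.p6. No genome sequence was used, so the planned motif search in peaks was not run. The window, zones, gene lists and alternatives were chosen with earlier results of these data known. The rule for names took all genes and Smc3 peaks of the window, the 8 strongest WT CTCF peaks, the 3 strongest WT CTCF peaks without a C59 partner, every C59 CTCF peak without a WT partner, the listed pluripotency genes with Smc3 at an end in both lines, and the 3 genes most like Sox2. The CTCF peaks at 32.7 kb before Sox2 and at 38.3, 101.8, 110.7 and 113.9 kb past its start fell outside it. So did Nanog and the histone genes of chromosome 13, and all of these were named after their values were seen. Alternatives changed the overlap rule, the q limit, the number of peaks and the zone.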

Additional observations from a re-analysis of the deposited data

How the results depend on the processing

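Of 56 values recomputed under another setting, 39 stayed within their interval or within 1.5 times the count, 17 moved and 0 reversed. With every list held to its 25734 strongest peaks, the window kept 6 C59 CTCF, 4 WT CTCF and 5 WT Smc3 peaks, and the distal zone kept 1 C59 CTCF, 1 WT CTCF and 1 WT Smc3 peak. C59 CTCF peaks found in WT then came to 66.7%, WT CTCF peaks found in C59 to 100%, WT Smc3 peaks found in C59 to 100%, and WT Smc3 peaks on CTCF to 80.0%. With a −log10 q of at least 10, the window kept 5 C59 and 8 WT Smc3 peaks and the distal zone 2 WT Smc3 peaks, and Smc3 overlapped CTCF for 100% in C59 and 87.5% in WT, whether the limit was set in both lists or in the Smc3 list alone. These settings remove the weaker peaks by their construction. No paired analysis was possible because there is 1 library per line and protein and no replicate numbers, and for the same reason no library could be left out. The weak Smc3 peaks without CTCF at Sox2 are those most exposed to depth, which the lists do not give.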

Other observations

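The stretches on either side of the window were poorer in both proteins. In the 200.0 kb before it there were 6 CTCF peaks in C59 and 6 in WT, and 0 Smc3 peaks in C59 and 3 in WT, all 3 on CTCF. In the 200.0 kb after it there were 3 CTCF peaks in C59 and 3 in WT, and 0 Smc3 peaks in C59 and 1 in WT, also on CTCF. Every CTCF peak of these flanks overlapped a peak of the other line, where the whole lists had 97.1% in C59 and 79.8% in WT. None of the 4 WT Smc3 peaks did, where the whole WT list had 52.9%, and 4 peaks are too few to compare. Going outward from the window, the next C59 Smc3 summit lay 208 kb before it and 301 kb after it, against 23.6 kb and 12.1 kb in WT.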
